A study of Homo sapiens with 16 samples.

Results

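The retinoic acid genes described here are 9 genes of retinoid binding, signalling and breakdown: the carriers CRABP1 and CRABP2, the receptors RARA, RARB, RARG and RXRA, and the enzymes CYP26A1, CYP26B1 and DHRS3. They were selected by symbol, and the values of the 4 groups of genotype and treatment given below were in view when they were selected, so these values are a description of the members and carry no test. All 9 were found among the 26410 genes with values. RNA was sequenced from SH-SY5Y, a human neuroblastoma cell line, in 16 libraries.

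The libraries fall into 4 groups of 4: the clones KO11 and KO28, which carry the label TRPM2 KO, and the scrambled guide control clones Scr13 and Scr16, each untreated and after 24 h of doxorubicin, a chemotherapy drug that damages DNA. The sample labels give a dose of 0.3 µM and the design text of the series gives 3 µM. TRPM2 is a calcium-permeable ion channel. The KO clones had been made with a Cas9 plasmid that carried a TRPM2 guide, and the Scr clones with a scrambled guide. All 4 lines also received the same donor vector with GFP and puromycin resistance and were grown from single cells, so that each label rests on 2 clones with 2 replicates each. No retinoid was among the treatments that the labels name.

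The libraries held between 10481177 and 25086085 reads on genes. Levels are given as normalized CPM, the reads of a gene scaled to the effective size of its library. A library with no read of a gene could still hold up to 3, and these 3 reads correspond to 0.118 to 0.285 normalized CPM depending on the library (counting error only). TRPM2 itself had 1.41 to 2.23 normalized CPM under the KO label without treatment and at most 3 reads in each untreated Scr library, a level at least 12-fold higher under the KO label. After doxorubicin, TRPM2 lay between 0.658 and 1.83 normalized CPM under the KO label and between 0.0594 and 1.33 in Scr, and the groups overlapped. TRPM2 RNA was thus not lower under the KO label. TRPM2-AS overlaps the gene on the opposite strand, and reads summed over all exons cannot tell if they cover the edited stretch. The paper reports that coding DNA for the start of the protein was deleted and the rest put out of frame. It also reports that the clones were checked by RT-PCR and Western blotting. KO stands for a label here, not for a loss of TRPM2 measured in these reads. Among the untreated Scr libraries, Scr13 replicate 1 stood apart, with the most reads of all 16 libraries and 139.3 normalized CPM of the collagen gene COL3A1, where the other 3 had 10.8 to 41.1.

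Retinoic acid is made in cells from retinol in 2 oxidation steps and acts on transcription. CRABP2 carries it to the nucleus, where receptors of the RAR family bind DNA as pairs with RXR and switch from repression to activation when retinoic acid is bound. CRABP1 holds retinoic acid in the cytoplasm, the CYP26 enzymes break it down, and DHRS3 turns its precursor retinaldehyde back to retinol. In neuroblastoma, retinoic acid slows growth and drives neuronal differentiation, and SH-SY5Y is a common model of that response.

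RAR and RXR bind pairs of a short hexamer. All 18 promoter windows of 300 bases that RefSeq gives for the 9 genes (GRCh38.p14, 250 bases before a transcript start to 50 after it) were searched on both strands for the hexamer AGGTCA and for its variants written as AGTTCA, or as GGGTCA, or as GGTTCA, single or as direct repeats with 1, 2 or 5 bases between them. A repeat with a spacer of 5 was found in 1 window of RARB, from base -53 before the start, and in 1 window of CYP26A1, from base -90. Repeats with this spacer occur in 0.0883% of all 35116 windows, with a spacer of 1 in 0.131% and with a spacer of 2 in 0.0399%. The single window of CRABP2 held 1 single hexamer and no repeat, and single hexamers occur in 38.6% of windows, so that it is shown for the gene that moved, not for a motif. The stretch of CRABP2 is chr1:156705817-156706034 on the - strand and that of RARB is chr3:25428013-25428262 on the + strand, both upstream of the annotated exons there. The stretch of CYP26A1 is chr10:93073797-93073826 on the + strand, which lies in the first exon of a longer transcript. Capitals mark the single hexamer in CRABP2 and the repeated hexamers in the other 2 stretches. A match of letters is no evidence of binding.
CRABP2: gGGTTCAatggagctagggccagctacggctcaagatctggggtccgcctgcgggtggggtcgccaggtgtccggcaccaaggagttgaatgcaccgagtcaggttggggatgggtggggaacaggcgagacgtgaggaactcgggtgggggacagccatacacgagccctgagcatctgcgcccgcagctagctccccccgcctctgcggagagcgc
RARB: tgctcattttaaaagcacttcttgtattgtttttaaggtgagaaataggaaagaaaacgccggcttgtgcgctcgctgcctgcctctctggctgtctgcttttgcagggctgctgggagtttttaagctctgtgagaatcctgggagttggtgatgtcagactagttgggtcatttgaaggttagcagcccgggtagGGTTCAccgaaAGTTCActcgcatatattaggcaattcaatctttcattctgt
CYP26A1: taaagaTGAACTttgggTGAACTaattgtc

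Levels of the 9 genes spanned from abundant receptors to enzymes near 0. Per kilobase of exons, the mean level over the 16 libraries was 27.0 ± 25.6 normalized CPM (SD, n = 16) for CRABP2, 22.7 ± 4.68 for RARA and 9.99 ± 2.04 for CRABP1. RARG followed with 7.22 ± 0.887, RXRA with 6.997 ± 0.720 and RARB with 0.860 ± 0.489. RARG and RXRA did not differ beyond their spread. The SD of CRABP2 holds its differences between the groups, so the means over all libraries do not rank CRABP2 against RARA. The order changed with the label: in untreated Scr libraries CRABP2 stood above RARA per kilobase (29.5 ± 5.06 against 18.1 ± 0.765, n = 4), and in untreated libraries labelled TRPM2 KO it stood below RARA (5.75 ± 0.823 against 24.8 ± 5.01) and below the mean of CRABP1, at 7.37 ± 1.27. DHRS3, CYP26A1 and CYP26B1 had means of 0.0993, 0.00861 and 0.00533 normalized CPM per kilobase.

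The nuclear carrier CRABP2 (ENSG00000143320; GRCh38 chromosome 1, 156699606 to 156705816, - strand) differed most between the labels among the 6 members with enough reads for a test. Without treatment, KO11 had 5.18 and 6.81 normalized CPM in its pair of libraries, and KO28 had 7.24 and 6.05. Scr13 had 38.2 and 31.0, and Scr16 had 25.3 and 35.2. All 4 libraries labelled TRPM2 KO were thus below all 4 Scr libraries. After doxorubicin it had 8.89 and 7.49 normalized CPM in KO11, and 7.39 and 7.35 in KO28. In Scr13 it had 79.2 and 64.4, and in Scr16 84.3 and 61.9. The distance between the labels was wider than without treatment and the groups again did not overlap. On the log2(normalized CPM + 1) scale, which understates changes of low genes, the difference KO minus Scr was -2.18 (standard error 0.16) without treatment and -3.06 (0.14) after doxorubicin. Without Scr13 replicate 1, the untreated difference was -2.102. AL590666.4 is annotated on the opposite strand of CRABP2. In these bulk libraries, fewer cells that express a gene and less of its RNA per cell cannot be told apart.

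CRABP2 was higher after doxorubicin in both Scr clones, from a mean of 34.6 to 71.8 normalized CPM in Scr13 (2.07-fold) and from 30.2 to 73.1 in Scr16 (2.42-fold). Under the KO label, it went from 5.99 to 8.19 in KO11 (1.37-fold) and from 6.65 to 7.37 in KO28 (1.11-fold). The response on the log2 scale was 1.14 in Scr (standard error 0.13) and 0.27 under the KO label (0.20), and the difference between both was -0.87 (0.21). The slopes of the clones are set side by side in the plot of CRABP2 and RARA by clone.

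**Figure D1:**
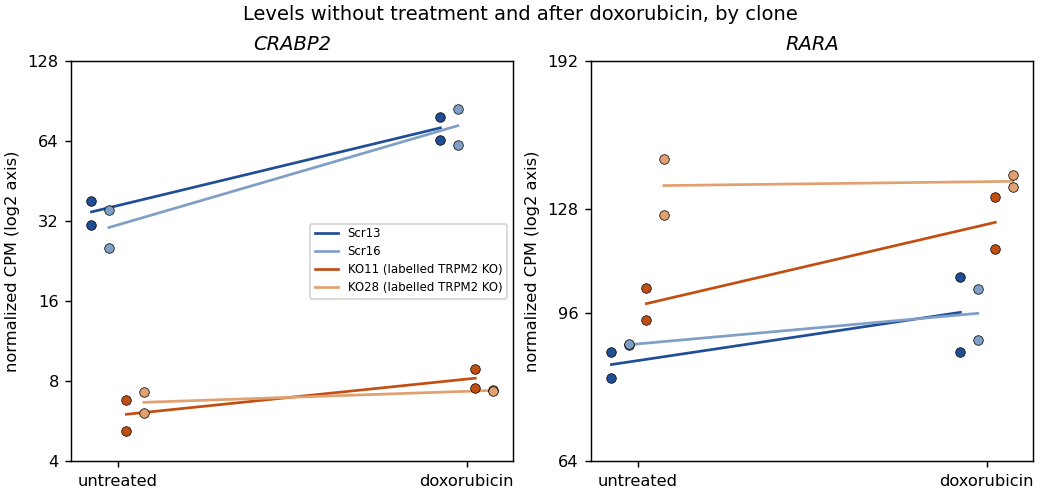
Normalized CPM (log2 axis) of CRABP2 and RARA without treatment and after doxorubicin, with 1 point per library and lines between the clone means of 2 replicates. CRABP2 lies between 5.18 and 8.89 in KO11 and KO28 and between 25.3 and 84.3 in Scr13 and Scr16, with steeper lines in the Scr clones, and RARA is higher in KO28 than in KO11 without treatment.

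The groups in view when the genes were selected do not divide the libraries by clone. Whether the 2 clones of a label differ was tested for the 6 members with enough reads. Earlier results of these data were known at selection, so this test is not shown to be independent of it. None of the 6 passed limma's test with Benjamini-Hochberg adjustment between KO28 and KO11, where 0.138% of genes did, or between Scr16 and Scr13, where 0.0348% did. At an unadjusted p under 0.05, 2 of the 6 differed between the KO clones and 0 between the Scr clones, where 1460 of 14513 and 1009 of 14378 genes did, and edgeR called 0 in both. CRABP2 differed by 0.00 (standard error 0.20, limma adjusted p = 0.999) between KO28 and KO11 and by -0.09 (0.13, adjusted p = 0.916) between Scr16 and Scr13. RARA was the member with the widest gap between the KO clones, 0.31 higher in KO28 (0.08, adjusted p = 0.172), and it differed by 0.04 (0.08, adjusted p = 0.943) between the Scr clones. RARG was 0.27 higher in KO28 (0.11, adjusted p = 0.413).

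The cytoplasmic carrier CRABP1 (ENSG00000166426; chromosome 15, 78340324 to 78348230, + strand) had 5.68 and 7.41 normalized CPM in untreated KO11, 7.44 and 8.75 in KO28, 9.57 and 9.15 in Scr13 and 11.6 and 10.7 in Scr16. The untreated groups did not overlap, with a log2 difference of -0.44 (0.18). After doxorubicin it had 8.31 to 11.3 under the KO label and 9.41 to 12.6 in Scr, and these groups overlapped. The smaller gap came with values of 10.5 ± 1.45 under the KO label (SD, n = 4) after doxorubicin against 7.32 ± 1.26 before, where Scr had 11.6 ± 1.501 and 10.2 ± 1.11. Both carriers had lower means under the KO label, and CRABP1 with a far smaller difference than CRABP2.

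**Figure D2:**
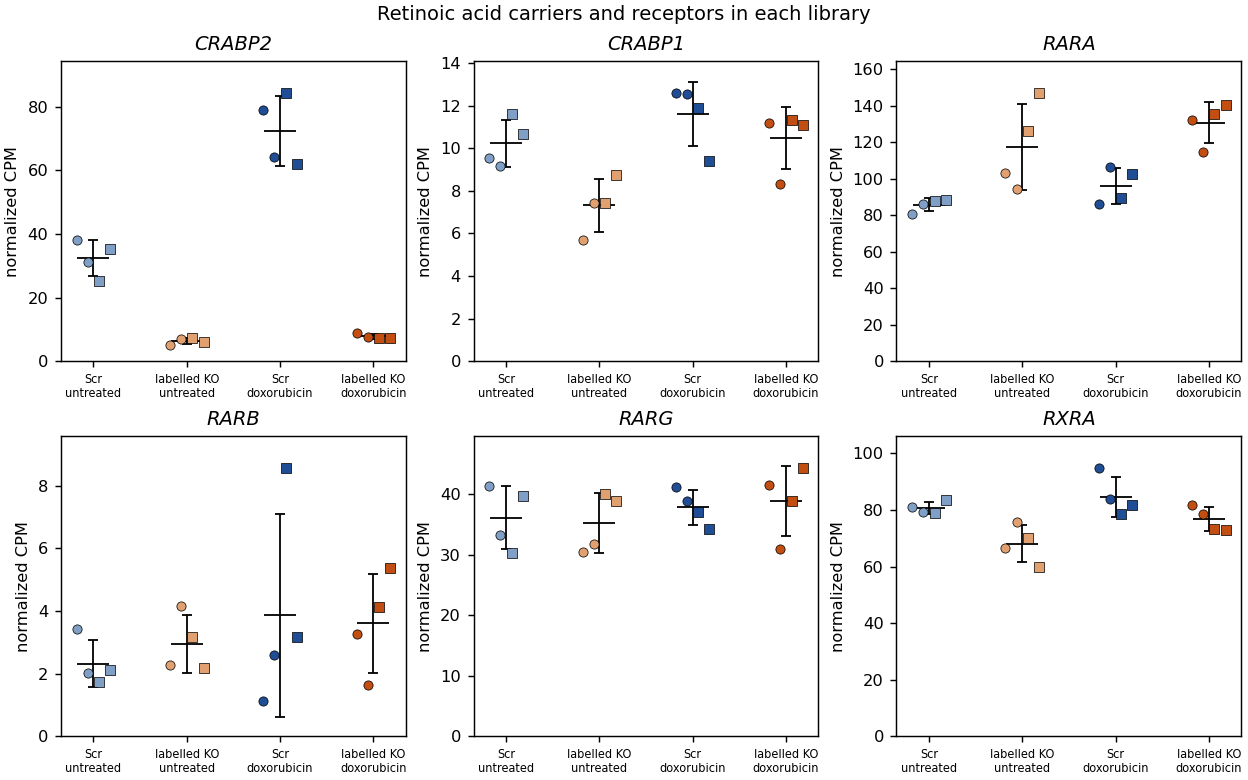
Normalized CPM of the 6 members with enough reads for a test, 1 panel per gene with its own axis from 0, in the 4 groups; circles are KO11 and Scr13, squares KO28 and Scr16, and lines give the mean and SD of 4 libraries. CRABP2 separates the labels most, RARA is higher in each group labelled KO, and RARG groups overlap.

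Among the receptors, RARA (ENSG00000131759; chromosome 17, 40309192 to 40357643, + strand), which pairs with RXR on DNA, had 102.9 and 94.3 normalized CPM in untreated KO11, 125.9 and 146.8 in KO28, 80.5 and 86.4 in Scr13 and 88.0 and 88.2 in Scr16. After doxorubicin it had 132.1 and 114.4 in KO11, 135.7 and 140.3 in KO28, 86.4 and 106.2 in Scr13 and 89.3 and 102.8 in Scr16. RARA was higher in every library labelled TRPM2 KO than in every Scr library of the same treatment. The log2 difference was 0.43 (0.11) without treatment and 0.44 (0.09) after doxorubicin. The untreated value was 0.66 without KO11 and 0.20 without KO28, and 0.32 to 0.53 when 1 library was left out. The value after doxorubicin was 0.52 without KO11 and 0.36 without KO28. RARA-AS1 overlaps RARA on the opposite strand, and the use of strand in counting is not given in the sources used here.

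RXRA (ENSG00000186350; chromosome 9, 134317098 to 134440585, + strand), the common partner of the RARs, had lower values under the KO label without treatment. It had 66.6 and 75.7 normalized CPM in untreated KO11, 70.1 and 60.0 in KO28, 81.2 and 79.5 in Scr13 and 78.8 and 83.7 in Scr16, with no overlap between the labels. The log2 difference was -0.25 (0.09), and after doxorubicin it was -0.14 (0.09) with overlapping groups of 72.9 to 81.8 and 78.4 to 94.7. RARG (ENSG00000172819; chromosome 12, 53210567 to 53232980, - strand) lay between 30.3 and 44.2 normalized CPM in all 16 libraries. Its log2 difference between the labels was -0.03 (0.12) without treatment and 0.03 (0.12) after doxorubicin.

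RARB (ENSG00000077092; chromosome 3, 25174332 to 25597932, + strand), a receptor whose own promoter carries the repeat printed above, was the lowest receptor. It had 2.26 and 4.16 normalized CPM in untreated KO11, 3.15 and 2.19 in KO28, 3.42 and 2.02 in Scr13 and 1.72 and 2.102 in Scr16. After doxorubicin it had 3.26 and 1.64 in KO11, 4.12 and 5.38 in KO28, 1.13 and 2.59 in Scr13 and 8.55 and 3.18 in Scr16. Groups overlapped in both treatments, and the log2 differences of 0.25 (0.25) and 0.07 (0.36) were within the spread between libraries. The value after doxorubicin was -0.53 without Scr13 and 0.66 without Scr16. TOP2B overlaps RARB on the opposite strand.

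The enzymes that remove retinoic acid or its precursor were near 0. CYP26A1 (ENSG00000095596; chromosome 10, 93073475 to 93077890, + strand) had 8 reads in all 16 libraries together, and 13 of the 16 were at 0. CYP26B1 (ENSG00000003137; chromosome 2, 72129238 to 72148038, - strand) had 9 reads, of which 5 were in untreated Scr13 replicate 1, and 13 libraries were at 0. At this depth, no difference between groups was detectable for either enzyme. DHRS3 (ENSG00000162496; chromosome 1, 12567910 to 12617731, - strand) had 80 reads in total, was at 0 in 7 libraries and passed 3 reads in 6. After doxorubicin, DHRS3 had 16 and 2 reads in KO11, 5 and 20 in KO28, 0 in both libraries of Scr13, and 9 and 0 in Scr16. Replicates of 1 clone differed as widely as the groups.

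Members were counted against the threshold, an adjusted p under 0.05 in a fit over all genes that reached 1 normalized CPM in 4 or more libraries of the comparison. For label and treatment, these counts describe the members and do not test them. CYP26A1, CYP26B1 and DHRS3 did not pass this filter, and 6 members did. Without treatment 2 of the 6, CRABP2 and RARA, passed the threshold between the labels, where 4.84% of genes did, and groups did not overlap for 4 of the 6, as they did not for 9.29% of genes. RARA no longer passed without Scr13 replicate 1 (0.40), KO28 replicate 1 (0.39) or KO28 replicate 2 (0.32), without the clone Scr13 (0.39), Scr16 (0.47) or KO28 (0.20), or with no filter on low values (0.43). After doxorubicin the same 2 genes passed, where 8.69% of genes did, and groups did not overlap for these 2, as for 13.2% of genes. Here RARA no longer passed without the clone KO28 (0.36). With doxorubicin in Scr, 1 of the 6, CRABP2, passed and was also without overlap, where 12.3% of genes passed and 17.1% did not overlap. Under the KO label 0 of 6 passed limma's threshold for doxorubicin, where 19.6% of genes passed. There, 1 member had an unadjusted p under 0.05, as had 4570 of 14513 genes, edgeR called 0, and the groups of CRABP2 did not overlap, as for 19.8% of genes. For the difference between both responses limma and edgeR called 0 of 6, where limma called 0.0196% of genes, and 1 had an unadjusted p under 0.05, as had 1148 of 15325 genes. Since these groups were in view when the members were chosen, nothing is read from the counts. The comparisons of treatment and label share libraries with each other.

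The genes whose levels followed a member most closely were sought among 15324 others by the correlation of log2(normalized CPM + 1) over the 16 libraries, which share clones and treatments. Nearest to CRABP2 were the secreted protease gene ADAMTS9 (r = 0.96), LINC02607 (r = 0.96) and EPB41L4B (r = 0.96). Each of the 3 had lower means under the KO label in both treatments. LINC02607 had 0.827 normalized CPM in untreated KO and 6.89 in Scr libraries, and 2.15 and 10.6 after doxorubicin. EPB41L4B had 6.17 and 16.1 without treatment and 6.67 and 22.3 after doxorubicin. For CRABP1 the nearest were SPAG6 (r = 0.88), AP3B2 (r = 0.88) and LPAR2 (r = 0.87), and for RARB MDH1B (r = 0.87), AC093908.1 (r = 0.82) and N4BP1 (r = 0.81).

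The other genes of the pathway were followed in 3 lists, with the number past the threshold in each direction. These lists, and those of cell type markers below, were chosen with earlier results of these data known. Most genes named from them were picked by the size of their change, so their p-values are not independent of the choice. Of 21 genes of retinoid uptake and retinoic acid synthesis, 15 were in the files and 9 or 10 were tested in a comparison. Without treatment 0 of 9 were higher and 1 was lower under the KO label, where 4.84% of all genes passed, with a median log2 difference of -0.07 beside -0.01 over all genes. ALDH1A3, an aldehyde dehydrogenase that makes retinoic acid from retinaldehyde, had 5.29 and 3.92 normalized CPM in KO11, 2.82 and 1.31 in KO28, 9.605 and 8.29 in Scr13 and 9.64 and 9.88 in Scr16. It was lower in all 4 libraries labelled TRPM2 KO, by -1.35 on the log2 scale (0.26, limma adjusted p = 0.00216). After doxorubicin it was again lower, at 4.31 ± 0.579 against 10.1 ± 1.76 (SD, n = 4), a log2 difference of -1.05 (0.21, adjusted p = 0.00186). It remained past the threshold in each fit that left out 1 library.

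After doxorubicin 1 of 10 genes of this list was higher and 1 lower under the KO label, where 8.69% of all genes passed, with a median of 0.06 beside 0.01. RDH10, a retinol dehydrogenase of the first oxidation step, had 11.5 and 10.96 normalized CPM in KO11, 8.44 and 9.80 in KO28, 3.15 and 3.28 in Scr13 and 6.65 and 4.22 in Scr16. The groups did not overlap, and the log2 difference was 1.11 (0.23, limma adjusted p = 0.00265). With doxorubicin, STRA6, the retinol uptake receptor, rose in Scr by 0.38 (0.07, adjusted p = 0.00102) and under the KO label by 0.71 (0.08, adjusted p = 6.72e-07). It was the 1 gene of 10 in the list that rose in Scr, where 12.3% of all genes changed (median -0.04 beside -0.01). Under the KO label 3 of 9 rose and 0 fell, where 19.6% of all genes changed (median 0.22 beside 0.02). DGAT1, which can store retinol as esters, rose there by 0.43 (0.11, adjusted p = 0.00522). RDH10 rose by 0.65 (0.22, adjusted p = 0.0325), a call that edgeR did not make and that held without KO28 untreated replicate 2 or KO28 doxorubicin replicate 1 but not without any of the other 6 libraries (0.53 to 0.68).

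**Figure D3:**
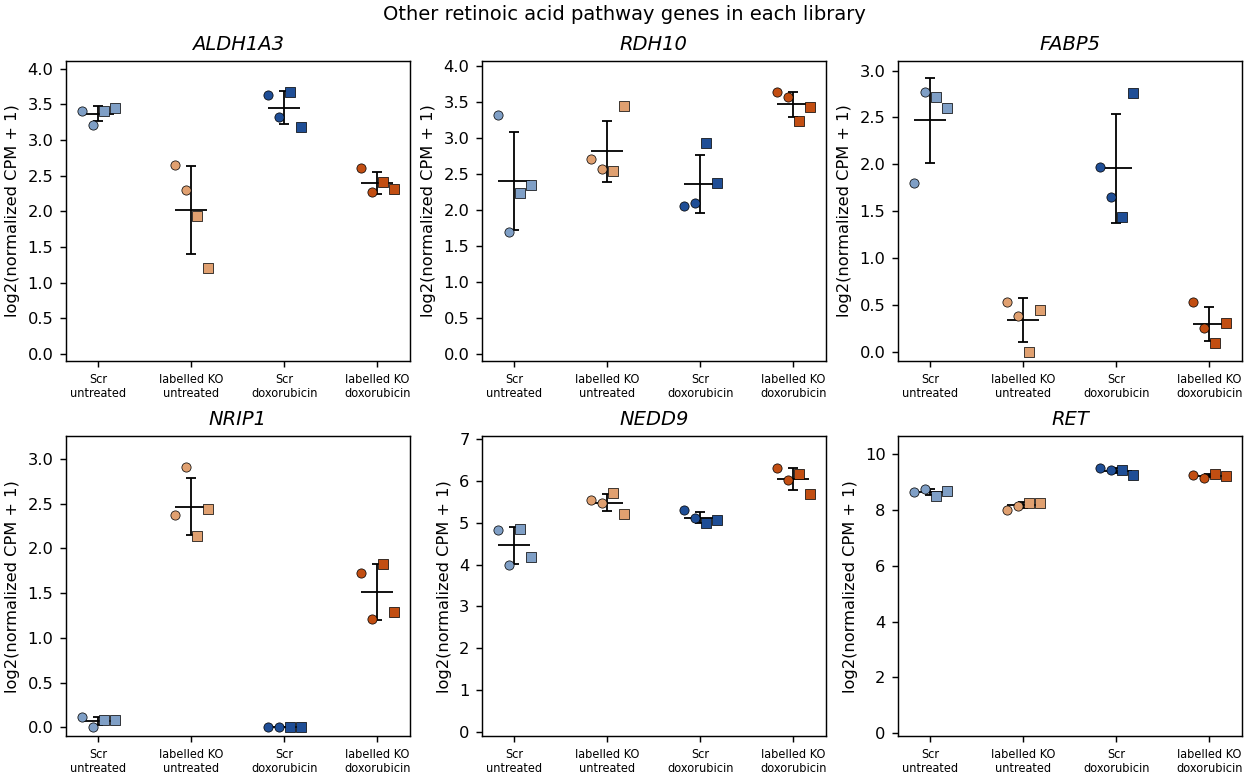
Values of log2(normalized CPM + 1) for 6 other pathway genes in the 4 groups, 1 point per library, with the mean and SD of 4; circles are KO11 and Scr13, squares KO28 and Scr16. In both treatments all libraries labelled KO lie below all Scr libraries for ALDH1A3 and FABP5 and above them for NRIP1 and NEDD9, and NRIP1 is at 0 in all 4 Scr libraries after doxorubicin.

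Of 20 receptor partners, other carriers and coregulators, 19 were in the files and 14 to 16 were tested in a comparison. Between the labels 1 of 15 was higher and 1 lower without treatment, where 4.84% of all genes passed (median 0.06 beside -0.01), and 1 of 15 was higher and 3 lower after doxorubicin, where 8.69% passed (median -0.08 beside 0.01). These counts hold NRIP1 and FABP5, which entered the test through the label in which they are high and had to differ, so they are given by their reads and without a test. FABP5, a carrier that can take retinoic acid to the receptor PPARD in place of CRABP2, had 8, 5, 0 and 5 reads under the KO label without treatment and 63, 101, 91 and 89 in the Scr libraries. In normalized CPM these were at most 0.441 against 2.48 to 5.81. After doxorubicin it had at most 7 reads under the KO label and 18 to 89 in Scr. The labels did not overlap in either treatment. FABP5 has processed pseudogenes, so reads may have been lost or gained in counting. PPARD was lower after doxorubicin, at 49.9 ± 4.56 against 65.5 ± 3.50 (log2 difference -0.39, 0.09, limma adjusted p = 0.00947), and its untreated difference of -0.15 did not pass.

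NRIP1, a corepressor that binds receptors with ligand, had 76, 108, 51 and 61 reads under the KO label without treatment and 2, 0, 1 and 1 in Scr. The level under the KO label was at least 28.8-fold higher, with the floor of 3 reads per library in Scr. After doxorubicin it had 36, 21, 39 and 24 reads under the KO label and 0 in all 4 Scr libraries, at least 8.98-fold higher. When 1 library of the high group was left out, NRIP1 and FABP5 no longer had 1 normalized CPM in 4 libraries and were not tested. Under the KO label, NRIP1 fell with doxorubicin by 0.96 (0.26, limma adjusted p = 0.00914), a call lost without KO11 untreated replicate 2 (-0.81).

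ZNF423, a zinc finger cofactor of the receptors, fell with doxorubicin in both labels, from 314 ± 18.1 to 248 ± 16.9 normalized CPM in Scr (log2 -0.34, 0.07, limma adjusted p = 0.00283) and from 306 ± 27.2 to 203 ± 15.9 under the KO label (-0.59, 0.07, adjusted p = 3.86e-07). After doxorubicin it was lower under the KO label by -0.29 (0.08, adjusted p = 0.0197), a call lost without KO11 replicate 1 (-0.27) or 2 (-0.25), Scr13 replicate 2 (-0.26) or Scr16 replicate 2 (-0.25). The difference between its responses was -0.24 (0.11) and did not pass (adjusted p = 0.614). TBL1X, a part of a corepressor complex, fell under the KO label by 0.36 (0.09, limma adjusted p = 0.00583). In this list 1 of 14 genes rose and 1 fell in Scr, where 12.3% of all genes changed (median 0.03 beside -0.01), and 0 of 14 rose and 3 fell under the KO label, where 19.6% changed (median -0.08 beside 0.02).

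Of 26 genes known to be raised by retinoic acid, 18 were in the files and 12 or 13 were tested. Between the labels they went both ways, with 1 of 12 higher and 1 lower without treatment, where 4.84% of all genes passed (median 0.01 beside -0.01), and 2 of 13 higher and 2 lower after doxorubicin, where 8.69% passed (median 0.12 beside 0.01). RET, a receptor tyrosine kinase of neuronal survival, had 257.3 and 283.8 normalized CPM in untreated KO11, 299.9 and 301.7 in KO28, 400.6 and 433.2 in Scr13 and 363.2 and 410.1 in Scr16, with no overlap. Its log2 difference was -0.49 (0.07, limma adjusted p = 0.00015), and after doxorubicin it was -0.18 (0.07) and did not pass. NEDD9, a scaffold protein of cell adhesion and migration, was higher under the KO label, at 44.1 ± 6.36 against 21.8 ± 6.74 normalized CPM without treatment (log2 1.02, 0.17, adjusted p = 0.000543) and 66.1 ± 11.8 against 33.9 ± 3.33 after doxorubicin (0.93, 0.12, adjusted p = 1.59e-05). RET and NEDD9, both on the same list, thus differed in opposite directions without treatment.

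After doxorubicin NTRK2, the receptor of brain-derived neurotrophic factor, was also higher, at 7.27 ± 0.640 against 2.53 ± 0.633 normalized CPM (log2 1.24, 0.23, limma adjusted p = 0.000964). The homeobox gene MEIS2 was lower by -0.39 (0.07, adjusted p = 0.000375), with 374.9 to 399.9 normalized CPM under the KO label and 500.2 to 526.9 in Scr and no overlap. The calls of NEDD9, NTRK2 and MEIS2 after doxorubicin held in each fit that left out 1 library.

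With doxorubicin, 4 of 13 genes of this list rose and 0 fell in Scr, where 12.3% of all genes changed (median 0.15 beside -0.01), and 6 of 12 rose and 3 fell under the KO label, where 19.6% changed (median 0.58 beside 0.02). RET rose in both, from 401.8 ± 29.1 to 677.8 ± 46.1 normalized CPM in Scr (log2 0.75, 0.07, limma adjusted p = 5.26e-07) and from 285.7 ± 20.6 to 598.1 ± 25.0 under the KO label (1.065, 0.07, adjusted p = 7.6e-12). NAV2, a gene of neurite growth, rose by 0.52 (0.07) and 0.69 (0.09), and NEDD9 by 0.66 (0.17) and 0.57 (0.12). The call of NEDD9 in Scr was lost without Scr13 untreated replicate 2 (0.46), Scr13 doxorubicin replicate 1 (0.59) or Scr16 untreated replicate 2 (0.55). BHLHE40, a transcriptional repressor of the circadian clock, rose by 1.19 in Scr (0.34, adjusted p = 0.0284) and by 1.43 under the KO label (0.27, adjusted p = 0.000297). Its call in Scr was not made by edgeR and was lost without Scr13 untreated replicate 2, Scr13 doxorubicin replicate 2, both untreated replicates of Scr16 or Scr16 doxorubicin replicate 1 (0.96 to 1.22).

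NTRK2 rose under the KO label by 1.30 (0.23, limma adjusted p = 0.000156), and its value in Scr was 0.06. GPRC5A had 0.511 to 1.16 normalized CPM under the KO label without treatment and 1.91 to 3.09 after doxorubicin. It passed the filter through the doxorubicin libraries, in which it is high, so it is given by its levels and without a test. The counts above hold it as a call that stood without KO28 untreated replicate 1 but not without any of the other 7 libraries (0.73 to 0.92). Among the genes that fell under the KO label were RAI14 (-0.41, 0.12, adjusted p = 0.0165) and MEIS2 (-0.22, 0.07, adjusted p = 0.0295). Their values in Scr were -0.31 and -0.05 and did not pass. For the difference between both responses, limma and edgeR called 0 of the 39 pathway genes tested, and 7 had an unadjusted p under 0.05, beside 1148 of 15325 genes. Between the clones of a label limma and edgeR called 0 pathway genes, with 3 of 35 and 0 of 37 at an unadjusted p under 0.05 in the KO and the Scr clones, beside 1460 of 14513 and 1009 of 14378 genes.

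**Figure D4:**
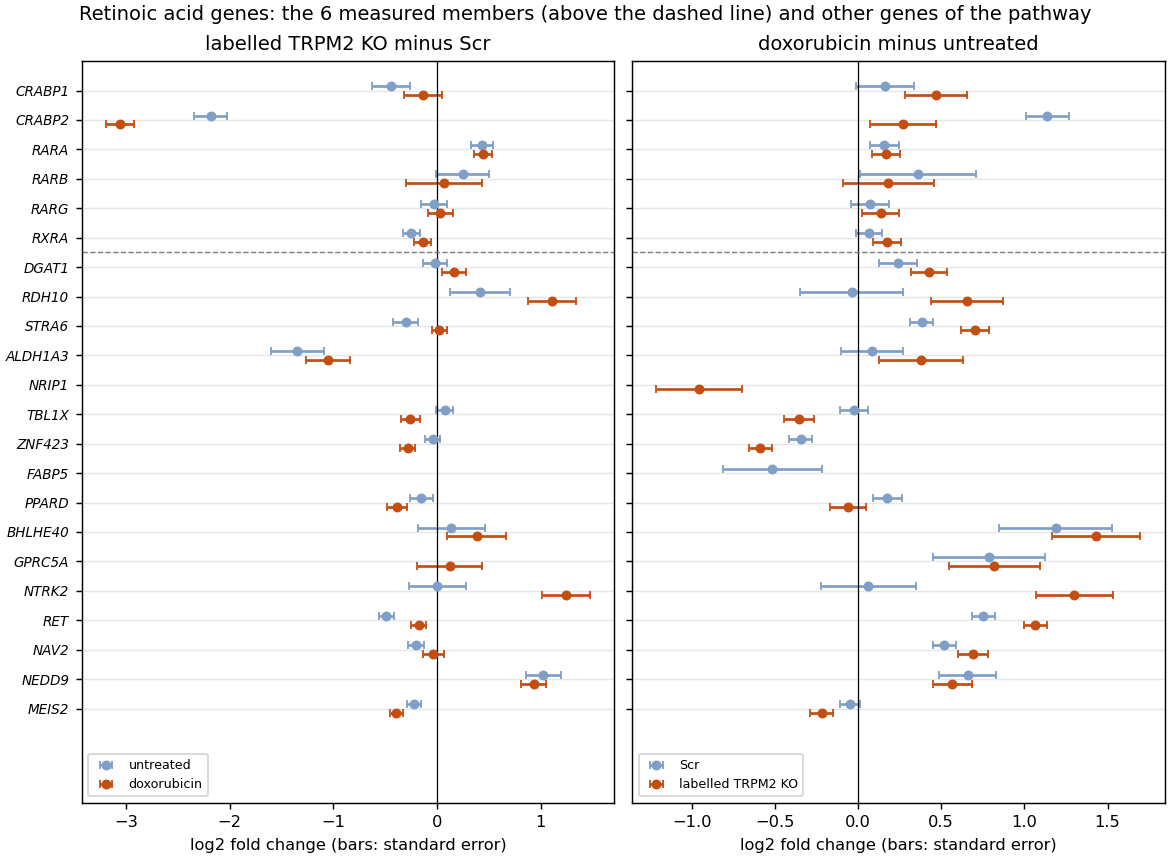
Fitted log2 fold changes (bars: standard error) of the 6 members above the dashed line and of other named pathway genes below it, between the labels on the left and for doxorubicin on the right. CRABP2 lies at -2.18 and -3.06 on the left and at 1.14 in Scr on the right, where RET lies at 0.75 and 1.065; genes without a point in a comparison were not tested in it, and NRIP1 and FABP5 have none on the left because they entered that test through 1 label only.

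Markers of cell types were read in the same fits. Of 12 adrenergic neuroblastoma markers, the summed level lay between 6085.6 and 7527.7 normalized CPM in the 16 libraries, with DBH, the enzyme that makes noradrenaline, or the transcription factor HAND2 as the most abundant gene. PHOX2A, HAND2, GATA2, GATA3, ISL1 and DBH were present throughout, INSM1 was at 0 in 14 libraries and TH in 6. Under the KO label TBX2 was higher after doxorubicin (0.45, 0.08, limma adjusted p = 0.000847). Without treatment TBX2 and GATA3 were higher by 0.35 and 0.32, calls that were each lost without any of 5 libraries (KO11 replicate 2, Scr13 replicate 1, Scr16 replicate 1 and both replicates of KO28, 0.24 to 0.37). In all, 3 of 10 tested were higher and 1 lower without treatment, where 4.84% of all genes passed (median 0.12 beside -0.01), and 2 higher and 1 lower after doxorubicin, where 8.69% passed (median -0.07 beside 0.01).

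Of 12 mesenchymal or fibroblast markers 11 were in the files, and their summed level was 1054.6 to 1373.2 normalized CPM in untreated libraries labelled TRPM2 KO and 640.2 to 1134.5 in Scr. After doxorubicin it was 1082.1 to 1459.3 against 658.4 to 973.1, with no overlap. VIM was the most abundant gene in all libraries labelled TRPM2 KO and in Scr13 untreated replicate 1, and TWIST1 in the other 7 Scr libraries. Without treatment 5 of 11 were higher and 1 lower under the KO label, where 4.84% of all genes passed (median 1.05 beside -0.01), and after doxorubicin 6 of 10 were higher and 1 lower, where 8.69% passed (median 1.37 beside 0.01). COL3A1 was higher by 2.17 (0.42, limma adjusted p = 0.00279), YAP1 by 1.91 (0.29, adjusted p = 0.000178), FN1 by 1.55 (0.27, adjusted p = 0.000965) and COL1A1 by 1.52 (0.31, adjusted p = 0.00406) without treatment. The value of COL3A1 was 2.79 without Scr13 replicate 1 and 1.60 without Scr13 replicate 2, and passed in each fit that left out 1 library. COL1A2 was at 0 in 2 Scr libraries, and no other marker of this list was at 0 in any library. TWIST1 was lower under the KO label, by -0.53 (0.08, adjusted p = 0.00011) without treatment and by -0.64 (0.08, adjusted p = 6.68e-06) after doxorubicin. SNAI2, NOTCH2 and THY1 did not pass in either treatment, with differences of -0.08, -0.08 and 0.03 without treatment and 0.29, -0.06 and 0.14 after doxorubicin. Some markers of this list were thus higher and 1 lower in the libraries in which CRABP2 was lower, and their part in the results on the retinoic acid genes was not tested.

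Of 6 Schwann cell markers 4 were in the files, with a summed level of 1.82 to 5.87 normalized CPM in all. S100B was at 0 in 7 libraries. The 2 that could be tested did not pass limma's test in any comparison. Mitochondrial transcripts took 3.87% to 6.41% of reads in untreated libraries labelled TRPM2 KO and 4.19% to 4.89% in Scr, and 5.42% to 8.10% against 4.86% to 5.83% after doxorubicin. These shares overlapped between the labels in both treatments, and their part in the results was not tested.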

How the data were processed

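Poly(A) RNA was sequenced with a directional kit from 16 SH-SY5Y libraries. The deposited values are a signal, reads per gene scaled by the authors to an effective library size (normalized CPM), whose processing notes name bcl2fastq, HISAT2 2.1.0, HTSeq, edgeR and GRCh38. The annotation and the use of strand are not given in the sources used here. The deposited p-value, q-value, log2 and rank columns hold the authors' own comparison of the labels and were not used. In every library 100% of values were whole multiples of 1 read (tolerance 0.01 reads), which gave the reads on genes. Symbols and positions came from GENCODE 29 by Ensembl ID and were found for 25317 genes (95.9%).

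The study tested with edgeR. Here the values were already scaled, so limma 3.58.1 (R 4.3.3, trend) was fitted to log2(normalized CPM + 1) over all genes that reached 1 normalized CPM in 4 or more libraries of a comparison, and p-values were adjusted by Benjamini-Hochberg over all genes tested (threshold 0.05). edgeR 4.0.16 on the recovered reads was an alternative. The 7 comparisons were KO against Scr in each treatment, doxorubicin in each label with a term for the clone, the difference of both responses, and the 2 clones of each label. The fit for the difference of both responses had no clone term, although each clone was both untreated and treated. With the clone as a random block, that fit also called 0 members and 0 pathway genes. The members and lists were chosen with earlier results of these data known. The text names all members, TRPM2, up to 4 genes per list and comparison with the largest change past the threshold, the 3 genes most correlated with each of the 3 most variable of the 6 members that passed the filter, and cell type markers. Some of these genes enter the counts and are not reported here by name. NAV2, NEDD9, MEIS2 and RAI14 under the KO label with doxorubicin were named after their values were seen. The study describes the replicates of a clone as biological, and they share that clone, so p-values measure the spread between these libraries and not between independent edits. Other alternatives were a pseudocount of 0.5, no filter, library size alone, other clone terms, the replicate number as a block, and fits without 1 library or clone.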

Additional observations from a re-analysis of the deposited data

Results flagged for a closer look

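In 199 groups of 4 libraries, 16 had 1 library farther from the rest than Dixon's 95% critical value allows (its gap to the nearest library as a share of the range of the group). Chance flags about 1 in 20 groups. Among the members, CRABP1 after doxorubicin was lowest in KO11 replicate 2, at 8.31 normalized CPM with the nearest library at 11.1 (0.935), and CRABP2 was highest in KO11 replicate 1, at 8.89 with the nearest at 7.49 (0.908). In untreated Scr13 replicate 1, CYP26B1 had 5 reads where the other 3 libraries had 0 (ratio 1), DHRS3 had 19 reads with 2 in the nearest (0.846), and the library itself had 25086085 reads on genes with 17330384 in the next (0.839). DHRS3 after doxorubicin had 9 reads in Scr16 replicate 1 and 0 in the other 3 Scr libraries (ratio 1).

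Among the pathway genes without treatment, KO28 replicate 2 was high in PPARD (67.9 normalized CPM, nearest 48.5, 0.92) and RDH10 (9.92, nearest 5.57, 0.855), and KO11 replicate 1 was low in DGAT1 (32.3, nearest 44.9, 0.878). After doxorubicin, GPRC5A was high in KO11 replicate 2 (3.09, nearest 2.03, 0.903) and TBL1X low in Scr16 replicate 1 (60.5, nearest 70.7, 0.835). Among the markers, CHGA was high in untreated KO11 replicate 2 (26.4, nearest 2.59, 0.945) and low in Scr13 doxorubicin replicate 1 (0.356, nearest 1.45, 0.94). After doxorubicin GATA3 was low in KO11 replicate 2 (709.6, nearest 825.0, 0.842), ISL1 high in KO28 replicate 2 (144.1, nearest 125.9, 0.903) and YAP1 high in KO11 replicate 1 (14.01, nearest 9.95, 0.878).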

How the results depend on the processing

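No value changed its sign past the threshold under any alternative that was run. Without the filter on low values, 1 member was called between the labels without treatment in place of 2, and all genes called were 368 in place of 695 there, 831 in place of 1774 with doxorubicin in Scr (4 pathway genes in place of 7), 5 in place of 3 for the difference of the responses and 0 between the clones of either label. edgeR called 10 genes between the KO clones in place of 20 and 2 between the Scr clones in place of 5. With 1 library or clone left out, the members called were 1 to 2 between the labels in each treatment (0 to 1 with doxorubicin under the KO label), the pathway genes 3 to 6 and 5 to 10 between the labels and 0 to 1 between the KO clones, and all genes 327 to 796 and 510 to 1314 between the labels, 1100 to 1739 with doxorubicin in Scr, 1 to 4 for the difference of the responses, 3 to 91 between the KO clones and 1 to 32 between the Scr clones.

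Pairing of the libraries by replicate number was at most weak. Over 28 pairs of groups, the deviations of same-numbered libraries correlated between -0.132 and 0.212. The median was 0.0461, with 8 pairs over 0.1 and 2 under -0.1. With the replicate number as a block, the members called were 2, 2, 1 and 0 in the comparisons of label and treatment, as without it, the difference of the responses had 7 genes and the KO clones 1 pathway gene. Between the labels, all genes called were 697 in place of 695 without treatment and 1365 in place of 1266 after doxorubicin. With doxorubicin they were 2113 in place of 1774 in Scr and 2948 in place of 2846 under the KO label. The cause of these shifts was not tested. Fits without a whole clone left 2 libraries of that label, from 1 clone. At this depth CYP26A1, CYP26B1 and DHRS3 could not be compared, and 2 clones per label do not separate the label from the clone.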
